A study of Homo sapiens with 42 samples.

Results

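The FOS family loci are 4 stretches of the human genome that hold 6 related genes. They are chr14:74900000-75800000 with FOS, JDP2 and BATF, chr19:45250000-45700000 with FOSB, chr11:65600000-66150000 with FOSL1, and chr2:27900000-28900000 with FOSL2 (build hg38). Their members are the chromatin loops of the deposited table whose first or second anchor starts inside one of these windows, which are 50 of 33914 loops. The FOS window holds 23 of them, the FOSB window 11, the FOSL1 window 7 and the FOSL2 window 9. All 50 passed the filter on low counts, as did 24132 loops of the whole table. The rule uses positions alone and no measured value.

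The proteins of this family are bZIP transcription factors. Each pairs with a JUN protein to form AP-1, which binds TGA(C/G)TCA sites in promoters and enhancers. FOS and FOSB are immediate early genes that serum, growth factors and phorbol esters switch on within minutes through protein kinase C, the RAF, MEK and ERK kinases, and the factors SRF, ELK1 and CREB. FOSL1 and FOSL2 lack the strong activation domain of FOS, are usually induced later and stay up longer, and JDP2 and BATF form dimers that mostly hold AP-1 targets down or cooperate with other factors.

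Contacts were measured by in situ Hi-C, which joins DNA ends lying close together in fixed nuclei and reads the joined pairs. The cells were K562, an established line from a human chronic myeloid leukemia, labelled wild type, and all were of this 1 line. They received 25 nM PMA, a phorbol ester that activates protein kinase C and drives the line toward megakaryocytes, for 0 h (the untreated control), 6 h or 72 h. Each time has 4 biological replicates, so that 12 libraries are compared. The medium was renewed between 6 h and 72 h, so time in culture, fresh medium and PMA cannot be told apart at 72 h. A contact table holds no expression values, so the identity of the cells could not be checked against marker genes. The count between 2 anchors of 10 kb also contains the local background of contacts, and in a bulk culture more cells with a loop cannot be told apart from more frequent contact in each cell.

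Over all loops, depth per library was 849895 to 1472197 contacts (0 h), 736929 to 1090199 (6 h) and 988726 to 1181057 (72 h). A member loop had between 5 and 353 raw contacts in a library, with a median of 42. The exact 95% Poisson interval of a count of 42 is 30.3 to 56.8, and that of a count of 5 is 1.62 to 11.7; both cover counting error only. The 72 h libraries of replicates 3 and 4 did not differ beyond sampling noise over the tested loops (chi-square over its degrees of freedom 1.003, p = 0.367), and the remaining pairs of that time gave 1.056 to 1.161. Replicates 3 and 4 were also the closest pair at 0 h (1.018, p = 0.0253) and at 6 h (1.023, p = 0.00621), but differed there. The 72 h pair was counted as 1 sample in means and as 2 libraries in the fits, so n = 3 at 72 h and n = 4 at 0 h and 6 h. An SD at 72 h therefore leaves out the difference between these 2 libraries. Nothing in the labels says that the biological replicates came from separate days, and p-values then measure only the spread between these libraries.

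Where the genes lie against the anchors decides what a contact count can describe. RefSeq's table (GRCh38.p14) places FOS at chr14:75278828-75282230 on the plus strand, and its promoter lies just outside the nearest anchor, which holds the 3′ part of the gene. FOSB is at chr19:45467996-45475179 on the plus strand, with its start 2005 bp outside the anchor that covers the rest of it. FOSL2, at chr2:28392858-28417317 on the plus strand, is the only one of the 5 genes with a listed promoter (all but FOSL1) whose promoter falls inside an anchor. FOSL1 lies at chr11:65892049-65900545, JDP2 at chr14:75426943-75474107 and BATF at chr14:75522469-75546992.

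The promoter windows of FOS (chr14:75278578-75278877), FOSB (chr19:45467746-45468045), FOSL2 (chr2:28392608-28392907) and VASP (chr19:45507229-45507528) are shown because loops described here end in or beside them. VASP encodes a protein that lengthens actin filaments and is the neighbour of FOSB whose promoter anchors the loop with the steepest fall at 6 h. Each runs 5′ to 3′ on the plus strand of GRCh38.p14, from 250 bases before to 50 bases after the RefSeq start. Capitals mark matches on either strand to TGACG, the core of the cAMP response element (CRE) bound by CREB and ATF proteins, and to TGANTCA, the AP-1 site.
FOS: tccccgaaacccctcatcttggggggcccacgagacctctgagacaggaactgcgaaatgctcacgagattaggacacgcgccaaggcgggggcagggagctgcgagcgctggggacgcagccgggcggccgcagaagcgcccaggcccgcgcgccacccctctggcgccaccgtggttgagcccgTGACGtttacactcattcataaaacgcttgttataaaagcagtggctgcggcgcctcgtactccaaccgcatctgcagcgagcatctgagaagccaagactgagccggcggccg
FOSB: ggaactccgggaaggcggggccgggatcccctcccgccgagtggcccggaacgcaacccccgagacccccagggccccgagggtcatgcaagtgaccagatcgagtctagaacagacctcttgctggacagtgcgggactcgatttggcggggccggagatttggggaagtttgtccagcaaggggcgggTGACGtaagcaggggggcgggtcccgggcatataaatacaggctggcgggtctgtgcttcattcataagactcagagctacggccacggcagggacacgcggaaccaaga
FOSL2: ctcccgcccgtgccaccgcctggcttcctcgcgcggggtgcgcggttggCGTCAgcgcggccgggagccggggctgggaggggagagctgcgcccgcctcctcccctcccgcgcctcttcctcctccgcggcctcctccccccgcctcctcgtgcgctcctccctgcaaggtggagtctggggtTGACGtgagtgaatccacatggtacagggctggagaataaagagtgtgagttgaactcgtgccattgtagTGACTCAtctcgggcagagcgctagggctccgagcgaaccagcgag
VASP: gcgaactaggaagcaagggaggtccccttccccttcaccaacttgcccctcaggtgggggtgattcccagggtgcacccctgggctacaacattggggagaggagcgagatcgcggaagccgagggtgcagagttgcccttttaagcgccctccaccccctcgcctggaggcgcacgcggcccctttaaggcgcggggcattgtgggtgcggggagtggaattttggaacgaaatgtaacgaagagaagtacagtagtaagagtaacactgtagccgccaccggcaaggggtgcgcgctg

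FOS, FOSB and FOSL2 each carry a TGACG, whose first base lies at -64, -60 and -66 from the start, in that order. FOSL2 has another on the opposite strand at -201. The AP-1 site of FOSL2, TGACTCA, begins at base 5 of the transcript, in the promoter that 2 loops described below share as an anchor. VASP has no match to either. Of 34943 RefSeq promoters of this length, 24.5% held TGACG, 7.72% held TGANTCA, 1.84% held the full CRE TGACGTCA (which contains TGACG) and 1.3% held a CArG box, the site of SRF. No full CRE and no CArG box was found in these 4 windows. They begin 250 bases before the start, and sites farther upstream were not searched. Such matches describe letters and not bound sites.

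**Figure D1:**
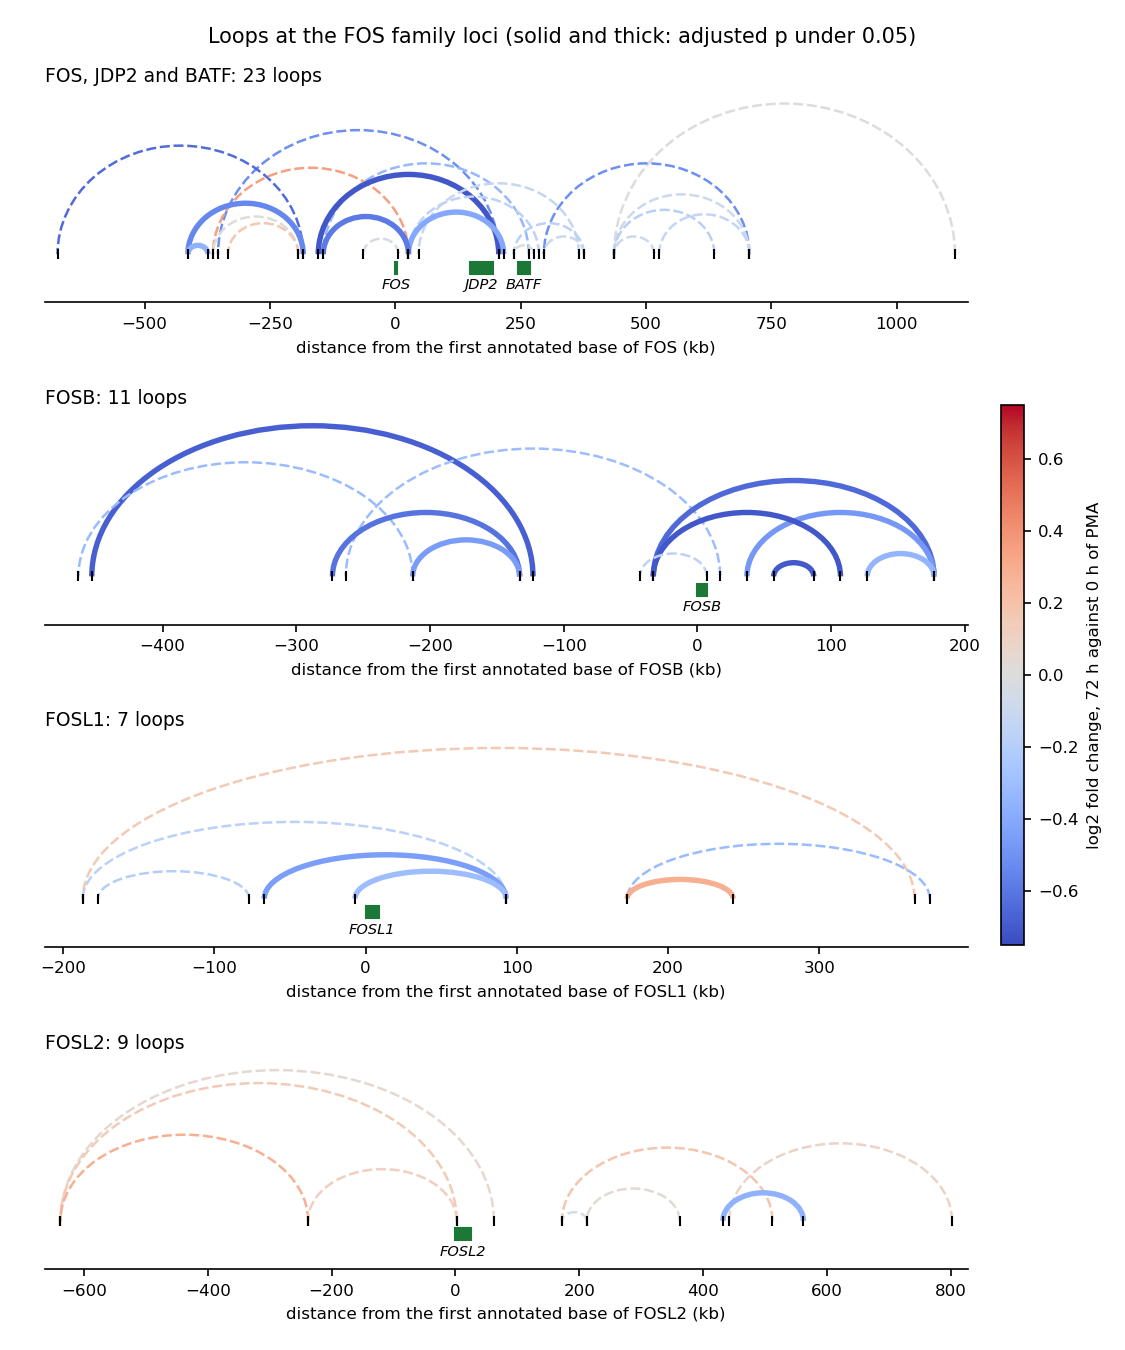
Map of the 50 loops, with distance in kb from the first annotated base of the named gene on each horizontal axis; each arc joins the centres of 2 anchors, black ticks mark anchors and green boxes genes. Colour gives the log2 fold change at 72 h against 0 h, and thick solid arcs passed an adjusted p under 0.05: 5 in the FOS window, 8 in the FOSB window, 3 in the FOSL1 window and 1 in the FOSL2 window.

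The loops span 30 to 700 kb, with a median of 195 kb against 290 kb for all tested loops, and short loops have more contacts. An end of a protein-coding gene lies in an anchor of 33 of the 50. Mean normalized contacts (contacts per 1000000 in tested loops after TMM scaling) were above the median of tested loops of the same length for 29 of 50. The loop of FOSL2 to an anchor 640 kb away had 33.8 against a median of 14.5 at that length, above 91.5% of the 129 tested loops of its length. The FOS loop of 70 kb stood at 60.9 against a median of 79.2, above 29.3% of 552 loops. The FOSB loop of 50 kb had 156 against 96.5, above 88.0% of 401. Members share anchors and are not independent: 1 anchor past FOS serves 4 loops, another past BATF serves 4, and the EML2 anchor in the FOSB window serves 3.

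**Figure D2:**
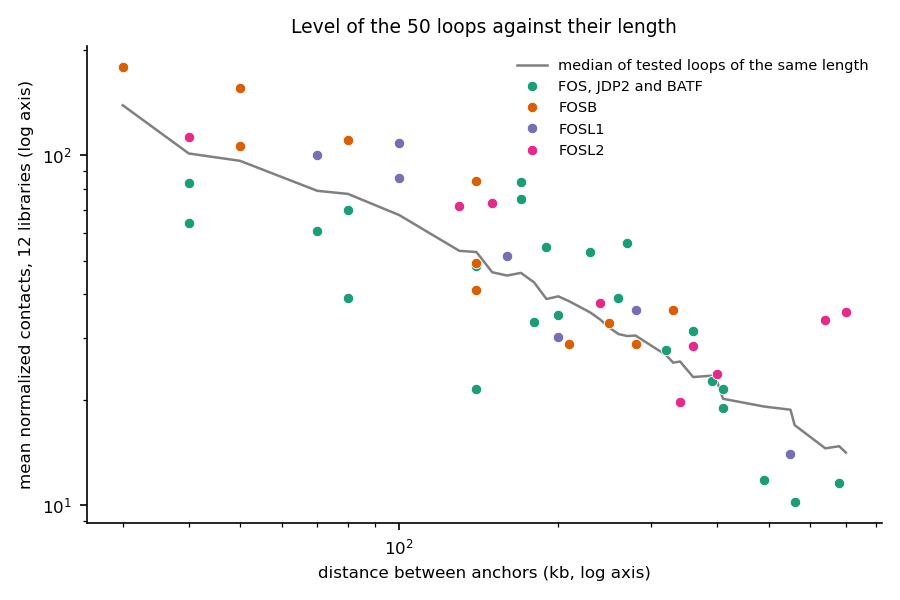
Mean normalized contacts over 12 libraries (vertical, log axis) against the distance between anchors in kb (horizontal, log axis) for the 50 loops, coloured by window; the grey line is the median of all tested loops of the same length. The longest FOSL2 loops, at 640 and 700 kb, lie above the line at 33.8 and 35.7, and 29 of the 50 loops lie above it.

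The comparison of 6 h with 0 h asks which contacts moved early. At 6 h, 5 of the 50 loops fell and 1 rose (12%), against 6.41% of all tested loops, 4.07% falling and 2.34% rising (edgeR quasi-likelihood test, Benjamini-Hochberg adjusted p under 0.05 over 24132 loops). The falls were 4 of 11 loops in the FOSB window and 1 of 23 in the FOS window, and the rise was 1 of 9 in the FOSL2 window. No loop of the FOSL1 window passed. The median log2 fold change was -0.35 in the FOSB window, 0.01 in the FOS window, -0.06 in the FOSL1 window and 0.04 in the FOSL2 window, with 0.01 over all tested loops and -0.04 over those of chromosome 19. On chromosome 19, 8.04% of tested loops fell at 6 h. The 4 falls at FOSB became 2 with a correction for loop length, 2 without replicate 2 of 6 h, 1 without replicate 1 of 0 h, 2 within replicates 1 and 2 and 0 within replicates 3 and 4. Without replicate 1 of 0 h, 1 member was called in place of 6, and DESeq2 called 2 members (1.41% of all tested loops). All these settings called fewer of all tested loops than the main fit, so part of each drop was shared by the whole table.

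The comparison of 72 h with 0 h asks what stood after differentiation. At 72 h, 16 loops fell and 1 rose (34%), against 33.6% called over all tested loops, of which 16.9% fell and 16.7% rose. The share called was near that of the table, and 16 of the 17 calls were falls. Falls numbered 8 of 11 at FOSB, 5 of 23 at FOS, 2 of 7 at FOSL1 and 1 of 9 at FOSL2, and the rise was at FOSL1. On chromosome 19, 35.4% of 647 tested loops fell, on chromosome 14 18.7% of 798, on chromosome 11 20.2% of 1339 and on chromosome 2 9.48% of 1435. Median log2 fold changes were -0.48 at FOSB (-0.23 over chromosome 19), -0.16 at FOS (-0.08 over chromosome 14), -0.20 at FOSL1 (-0.04 over chromosome 11) and 0.09 at FOSL2 (0.15 over chromosome 2). DESeq2 called 10 members (20.6% of all tested loops).

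Between 6 h and 72 h, 9 loops fell and 1 rose (20%), against 20.5% of all tested loops, 9.81% falling and 10.7% rising. Of the 9, 5 were in the FOS window, 3 in the FOSB window and 1 in the FOSL2 window. Among tested loops, 20.4% of chromosome 19 fell in this step, 10.0% of chromosome 14, 11.2% of chromosome 11 and 9.55% of chromosome 2. Both comparisons with 0 h use the same control libraries, so their values are given side by side. In all, 24 loops passed in at least 1 comparison and 26 in none, and 4 loops fell at both 6 h and 72 h. Libraries of the times compared did not overlap for 9 loops at 6 h against 0 h (10.7% of all tested loops), 10 at 72 h against 0 h (28.3%) and 6 at 72 h against 6 h (19.8%). From 6 h to 72 h, DESeq2 called 2 members (8.2% of all tested loops). Among the members, 6 calls were left without replicate 1, 3 or 4 of 6 h and 5 without replicate 2 or 3 of 72 h. Without each of these replicates, fewer of all tested loops were called too, so part of each drop was shared by the whole table.

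**Figure D3:**
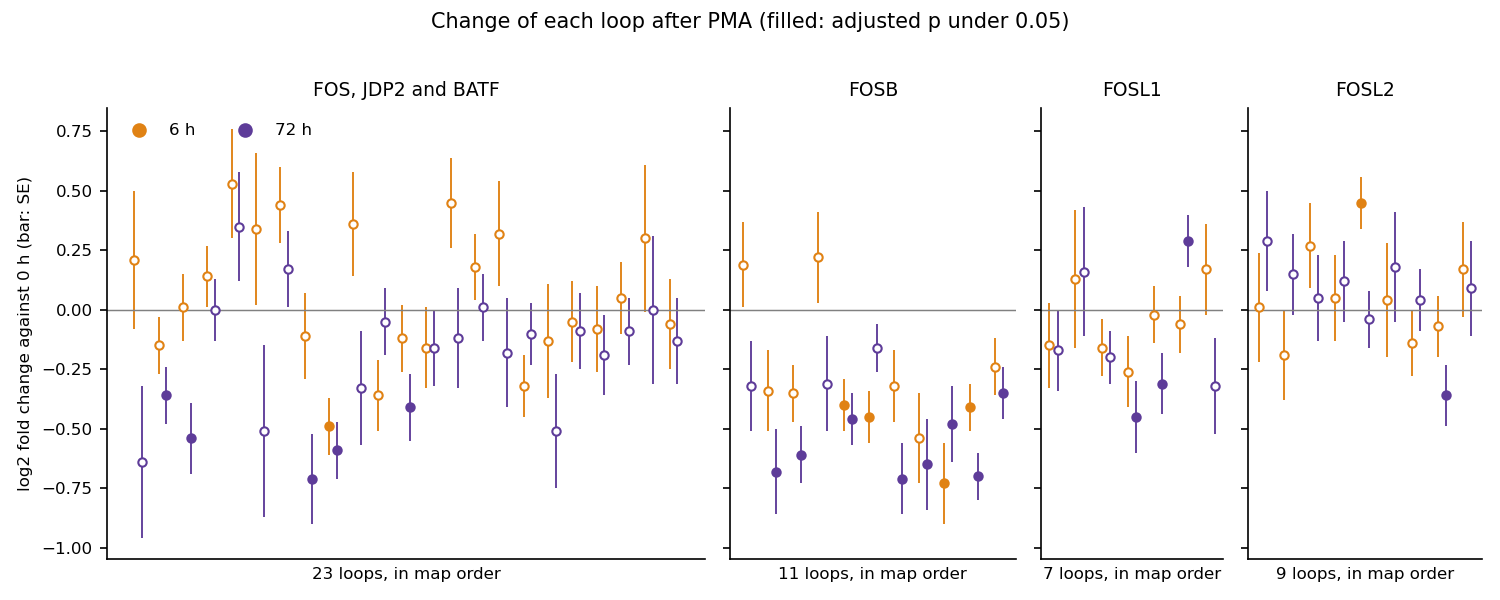
Log2 fold change against 0 h (vertical, bars are standard errors) of each loop at 6 h (orange) and 72 h (purple), in map order within the 4 windows; filled points passed an adjusted p under 0.05. All 11 FOSB loops lie below 0 at 72 h, from -0.71 to -0.16, and the highest filled point is the 6 h rise of 0.45 in the FOSL2 window.

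FOS, the founding member and classic immediate early gene, has 1 loop ending on it (loop27094). It joins chr14:75210001-75220000 to chr14:75280001-75290000, and the second anchor holds 2230 bp of the gene, with the start 1173 bp outside. Normalized contacts in replicates 1 to 4 were 62.3, 51.3, 67.7 and 87.5 at 0 h, 47.1, 51.4, 53.8 and 55.5 at 6 h, and 66.3, 55.2, 61.4 and 71.4 at 72 h. The 6 h libraries sat at the low end of the 0 h range and overlapped it, and the 72 h libraries lay within it. The log2 fold change was -0.36 ± 0.15 (SE) at 6 h (adjusted p = 0.13 by edgeR) and -0.05 ± 0.14 at 72 h (adjusted p = 0.81), so neither passed. Without replicate 2 of 0 h the 6 h value passed (adjusted p = 0.041). A difference at FOS itself was not detectable at either time at this depth.

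The clearest fall around FOS was of a loop that spans it (loop27092), from chr14:75130001-75140000, which holds an end of TMED10, a cargo receptor between endoplasmic reticulum and Golgi, to chr14:75300001-75310000 past the 3′ end of FOS. Its contacts were 117, 98.7, 113 and 96.6 at 0 h (106 ± 10.0, SD), 83.3, 72.9, 76.4 and 71.2 at 6 h (76.0 ± 5.38), and 77.0, 63.2, 63.4 and 78.6 at 72 h (70.4 ± 6.88). Every treated library was below every control library. It fell by 0.49 on the log2 scale at 6 h (adjusted p = 0.0055, edgeR) and by 0.59 at 72 h (adjusted p = 3.7e-05), and the 6 h to 72 h step of -0.10 did not pass (adjusted p = 0.62). The 72 h fall passed in every alternative tried, with the highest adjusted p at 0.012, while the 6 h fall had an adjusted p of 0.053 without replicate 1 of 0 h and 0.056 in DESeq2. This loop is the strongest of the FOS window, with 84.2 mean normalized contacts against a median of 46.1 at its length.

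In all, 5 loops reach over FOS, loop27092 among them, and 2 of them fell at 72 h. The other fall was of loop27091, which ends near JDP2. A loop upstream of FOS, from chr14:74860001-74870000 to chr14:75090001-75100000 (loop27086), held 61.6, 60.8, 50.2 and 61.4 contacts at 0 h, 64.7, 51.4, 60.9 and 62.7 at 6 h, and 53.1, 29.1, 37.4 and 41.1 at 72 h. The first pair of times coincided, and 3 of 4 libraries at 72 h were below all others. It fell by 0.54 at 72 h (adjusted p = 0.003, edgeR) and by 0.55 from 6 h to 72 h (adjusted p = 0.0057), the latter with an adjusted p of 0.054 without replicate 2 of 72 h. The other falls at 72 h in this window had log2 fold changes of -0.36 and -0.41. Between 6 h and 72 h, 5 loops of the window fell: this one, loop27091 and loop27093, both described below, and a further pair by 0.85 and 0.57.

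FOSB, which is induced with FOS and whose short splice form is known for its long life in neurons, has 1 loop ending on it (loop31022), which fell at 6 h. The loop joins chr19:45420001-45430000, where 2 of the 3 listed promoters of the DNA repair gene ERCC1 lie, to chr19:45470001-45480000, which covers 5179 bp of FOSB. Contacts were 216, 159.5, 173 and 155 at 0 h (176 ± 27.8), 134, 89.7, 139 and 168 at 6 h (133 ± 32.2), and 184, 153, 136 and 161 at 72 h (162 ± 19.4). Replicate 2 of 6 h was the lowest of all 12 and replicate 1 of 0 h the highest, and the times overlapped. It fell by 0.45 at 6 h (SE 0.11, adjusted p = 0.0039, edgeR), and its value of -0.16 at 72 h did not pass (adjusted p = 0.21). The step from 6 h to 72 h went the other way, at 0.28 with an adjusted p of 0.05, just short of a call. It passed as a rise in 11 of 25 alternatives, among them the batch term (adjusted p = 0.038, edgeR), the replicate block (0.02) and the length correction (0.023). Within replicates 1 and 2 it was 0.59 (adjusted p = 0.0044, edgeR), and within replicates 3 and 4 it was -0.05 (0.87).

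The 6 h fall at FOSB differed in size between the replicate pairs that were handled differently. Technical replicates number 3 for each of replicates 1 and 2, and 2, with 2 sequencing runs apiece, for replicates 3 and 4. The log2 fold change was -0.77 within replicates 1 and 2 (adjusted p = 0.00022, edgeR) and -0.09 within replicates 3 and 4 (adjusted p = 0.86). The difference of 0.68 had an unadjusted p of 0.00072 and an adjusted p of 0.86 over all tested loops. Without replicate 1 of 0 h the adjusted p of the fall was 0.12, without replicate 2 of 6 h it was 0.11, and DESeq2 gave 0.30.

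Beside FOSB, the loop with the most contacts of all 50 (loop31026) fell at every step. It spans 30 kb, from chr19:45520001-45530000 with ends of VASP and of OPA3, a mitochondrial protein gene, to chr19:45550001-45560000. Contacts were 256, 196, 239.6 and 213 at 0 h (226 ± 26.9), 174, 149.5, 181 and 183 at 6 h (172 ± 15.5), and 147, 149, 127 and 134 at 72 h (142 ± 10.0). The 3 times did not overlap, in falling order, though the lowest library of 6 h (149.5) and the highest of 72 h (149) were close. It fell by 0.41 at 6 h (edgeR, adjusted p = 0.0027), by 0.70 over 72 h (adjusted p = 1.1e-09) and by 0.30 from 6 h to 72 h (adjusted p = 0.028).

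The 72 h fall of this VASP and OPA3 loop passed in every alternative, with the highest adjusted p at 0.00018. The early fall had an adjusted p of 0.051 without replicate 1 of 0 h and 0.10 with a correction for loop length, and the late step lost its call in 10 of 25 alternatives (adjusted p up to 0.62), among them summing replicates 3 and 4 of 72 h (0.051). In the authors' deposited table it is the only member with a class other than static: it is classed as lost, with log2 values of -0.312 at 6 h and -0.631 at 72 h and an adjusted p of 1.17e-05, which is 1 value for both times. That table classes 503 of 33914 loops as lost and 1000 as gained. Its adjusted p was under 0.05 for 7 of the 46 members with a value, against 2761 of 18699 loops in all.

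The steepest fall at 6 h was in the neighbouring loop from the VASP promoter to EML2, a microtubule-binding protein gene (loop31025, chr19:45500001-45510000 to chr19:45640001-45650000). Contacts were 56.5, 40.8, 56.5 and 60.3 at 0 h (53.5 ± 8.64), 40.2, 20.6, 26.9 and 41.0 at 6 h (32.2 ± 10.1), and 42.5, 36.1, 36.4 and 37.5 at 72 h (38.5 ± 3.44). Replicate 2 was the lowest library at 0 h and at 6 h, and a single control library overlapped the treated ones. It fell by 0.73 at 6 h (adjusted p = 0.0026, edgeR) and by 0.48 at 72 h (adjusted p = 0.013), and the step from 6 h to 72 h of 0.26 did not pass (adjusted p = 0.33). The 6 h value was -0.73 within replicates 1 and 2 and -0.76 within replicates 3 and 4, neither of which passed (adjusted p = 0.052 and 0.091, edgeR), and the adjusted p of the 6 h fall was 0.069 without replicate 2 of 6 h. At 72 h DESeq2 gave an adjusted p of 0.072.

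**Figure D4:**
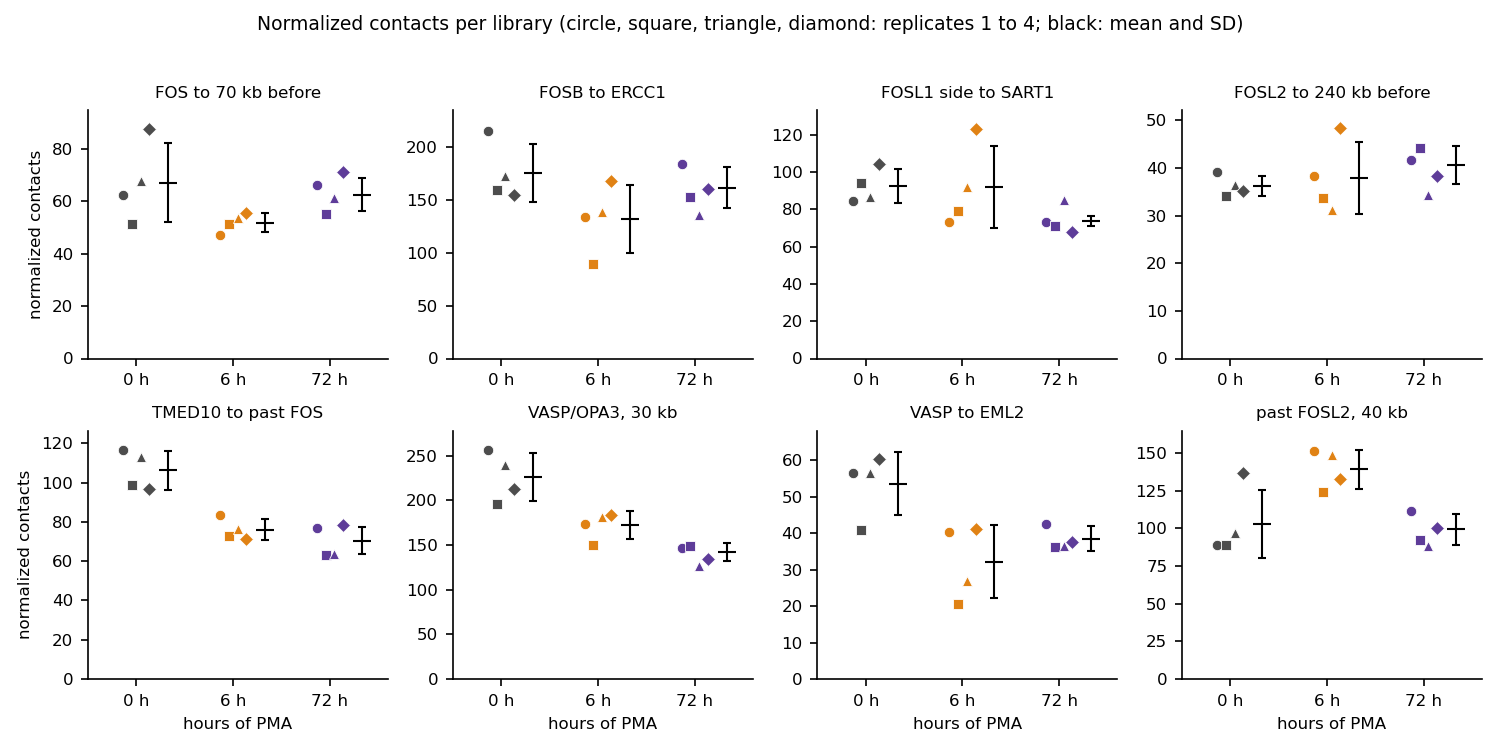
Normalized contacts (contacts per 1000000 in tested loops, vertical axis from 0) of 8 loops in each of the 12 libraries by hours of PMA; symbols mark replicates 1 to 4, and black bars the mean and SD with replicates 3 and 4 of 72 h as 1 sample. The VASP and OPA3 loop stepped down from 196 to 256 at 0 h to 127 to 149 at 72 h without overlap, while the loops on FOS, FOSB and FOSL2 overlapped between times.

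A further pair of FOSB loops had the next smallest adjusted p-values at 72 h. The loop from chr19:45430001-45440000 to chr19:45570001-45580000 (loop31023), which spans FOSB and VASP, held 60.8, 60.8, 65.2 and 59.1 contacts at 0 h, 52.9, 47.7, 39.6 and 54.3 at 6 h, and 32.7, 29.1, 36.4 and 50.9 at 72 h. Treated libraries were all below the controls, and at 72 h replicate 4 stood apart from the other 3. It fell by 0.71 at 72 h (adjusted p = 9.9e-05, edgeR), and its -0.32 at 6 h did not pass (adjusted p = 0.20). The loop from chr19:45190001-45200000 to chr19:45330001-45340000 (loop31019) went from 104 ± 10.4 through 81.2 ± 9.57 to 67.8 ± 3.72, and fell by 0.61 at 72 h (adjusted p = 2.5e-05, edgeR). The averaged replicates 3 and 4 of 72 h were its lowest and highest libraries of that time (62.4 and 72.3), so the SD of 3.72 understates the spread. The 6 h value of loop31019, -0.35, had an adjusted p of 0.056 (edgeR). It passed in 5 of 25 alternatives, among them the batch term (0.045) and the replicate block (0.035).

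Another pair of loops of this window passed between 6 h and 72 h alone. The loop ending 4.82 kb past FOSB at RTN2, a gene of an endoplasmic reticulum protein (loop31020), went from 29.2 ± 4.37 at 0 h to 34.1 ± 5.56 at 6 h and 23.6 ± 2.19 at 72 h, a fall of 0.53 from 6 h (adjusted p = 0.043, edgeR) that lost its call in 12 of 25 alternatives. The loop between RELB, an NF-kB subunit gene, and MARK4, a kinase gene (loop31016), went from 33.9 ± 1.26 to 38.6 ± 3.82 and 27.4 ± 4.63, a fall of 0.51 (adjusted p = 0.038, edgeR) that was lost in 7 of 25. In both, the 72 h libraries lay below all 6 h libraries. A fall outside the naming rule, named after its values were seen, was of loop31021 from the MARK4 promoter, at -0.40 at 6 h (adjusted p = 0.014, edgeR) and -0.46 at 72 h (adjusted p = 0.0004). The remaining 3 falls at 72 h in this window had log2 fold changes of -0.68, -0.65 and -0.35.

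**Figure D5:**
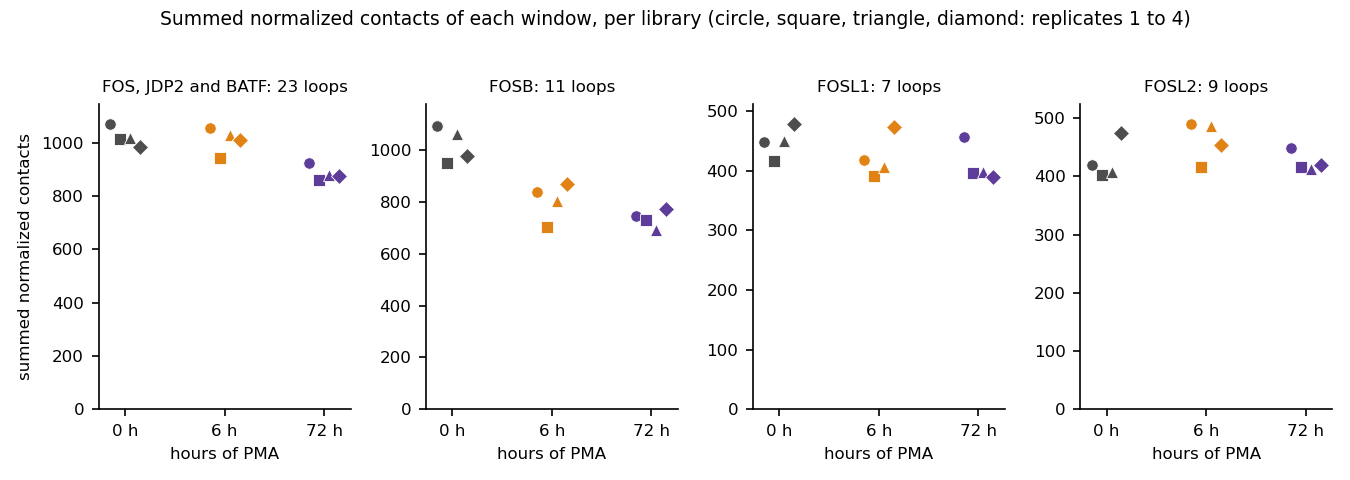
Summed normalized contacts of all loops of each window (vertical axis from 0) in the 12 libraries by hours of PMA, with symbols for replicates 1 to 4. FOSB sums of the controls lie between 950.3 and 1092, those of 72 h between 694 and 772, while FOSL2 sums lie between 402.5 and 474 in controls and between 413 and 448.5 at 72 h.

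Summed over the 11 loops of the FOSB window, normalized contacts were 1021 ± 67.2 at 0 h, 804 ± 72.3 at 6 h and 736 ± 8.82 at 72 h, which is 0.721 of the control at 72 h. Replicates 3 and 4 of 72 h, averaged to 1 sample, held the lowest and highest sums of that time (694 and 772). The SD of 8.82 therefore understates the spread between libraries. The 23 loops of the FOS window summed to 1022.5 ± 36.2, 1011 ± 47.9 and 888 ± 33.7, a ratio of 0.868 at 72 h. The FOSL1 window gave 449 ± 25.3, 422 ± 35.5 and 416 ± 35.4, and the FOSL2 window 426 ± 32.9, 462 ± 34.7 and 427 ± 18.9. In these sums the FOSB window was lower at both times with no overlap with 0 h, the FOS window was lower at 72 h alone, and the other 2 windows overlapped at all times. Loops of a window share anchors, so no test was made of the sums.

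FOSL1, the FRA-1 gene and a typical late target of ERK signalling, has no anchor on it. The nearest (loop22004) starts 2.05 kb away, at chr11:65880001-65890000 with CTSW, a cathepsin gene, and the promoter of FIBP, a binding partner of a fibroblast growth factor, and runs over FOSL1 to chr11:65980001-65990000 with SART1, a splicing factor gene. Contacts were 84.7, 94, 86.6 and 105 at 0 h, 73.5, 79.4, 92.0 and 123 at 6 h, and 73.4, 71.3, 85.3 and 67.8 at 72 h. Replicate 4 of 6 h was the highest of all, and 3 of 4 libraries at 72 h were below every control. It fell by 0.31 at 72 h (adjusted p = 0.045, edgeR), a call lost in 12 of 25 alternatives, among them DESeq2 (adjusted p = 0.13) and leaving out replicate 2 or 4 of 0 h or replicate 1, 2 or 4 of 72 h (0.062 to 0.13). At 6 h it stood at -0.02 ± 0.12 (adjusted p = 0.95).

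A second loop over FOSL1 to the SART1 anchor (loop22003) went from 59.8 ± 14.2 through 50.4 ± 3.75 to 44.7 ± 2.01 and fell by 0.45 at 72 h (adjusted p = 0.012, edgeR). That call was lost without replicate 1 (0.09) or replicate 4 (0.072) of 0 h, its highest control libraries. The only rise at 72 h among the 50 was here too, in the loop from SF3B2, another splicing factor gene, to chr11:66130001-66140000 (loop22005). Contacts were 92.0, 92.1, 102 and 94.4 at 0 h, 90.2, 73.8, 87.7 and 113 at 6 h, and 126, 108, 110.2 and 118 at 72 h. All 72 h libraries were above all controls, and 1 library of 6 h reached into their range.

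The SF3B2 loop rose by 0.29 at 72 h (adjusted p = 0.034, edgeR) and by 0.36 from 6 h (adjusted p = 0.019). The first call was lost in 11 of 25 alternatives. With replicates 3 and 4 of 72 h summed to 1 library its adjusted p was 0.056, so that no member rose at 72 h. It was also lost with DESeq2 at 0.12 and with replicate 1, 2 or 4 of 0 h or replicate 1 or 4 of 72 h left out at 0.073 to 0.13. The second was lost in 6, without replicate 1 (0.054) or 2 (0.15) of 6 h or replicate 1 of 72 h (0.079) among them. The strongest loop of the window (loop22002), from KAT5, an acetyltransferase gene, held 118 ± 8.75, 105 ± 12.7 and 107 ± 25.5 contacts and passed in no comparison. Its 72 h value of -0.20 passed without replicate 1 of 72 h (adjusted p = 0.013).

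FOSL2, the FRA-2 gene, has its promoter in an anchor, chr2:28390001-28400000, that also holds the start of its antisense RNA. The 240 kb loop to chr2:28150001-28160000 (loop3445) had 39.1, 34.2, 36.4 and 35.2 contacts at 0 h, 38.2, 33.6, 31.1 and 48.3 at 6 h, and 41.6, 44.2, 34.3 and 38.4 at 72 h. The 3 times overlapped. The log2 fold change was 0.05 ± 0.18 at 6 h (adjusted p = 0.91, edgeR) and 0.12 ± 0.17 at 72 h (adjusted p = 0.61). The 640 kb loop to chr2:27750001-27760000 (loop3443) went from 33.8 ± 1.83 through 30.1 ± 3.58 to 36.7 ± 5.69, with -0.19 ± 0.19 (adjusted p = 0.62, edgeR) and 0.15 ± 0.17 (adjusted p = 0.53). These contacts of the promoter with the AP-1 match passed in no comparison, at a depth of 22 to 54 raw contacts per library.

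The rise at 6 h lay farther along, in a 40 kb loop from chr2:28560001-28570000 to chr2:28600001-28610000 (loop3446), with no end of a protein-coding gene in its anchors. Contacts were 89.1, 89.2, 96.6 and 136 at 0 h (103 ± 22.7), 151, 124, 149 and 133 at 6 h (139 ± 12.8), and 112, 92.4, 88.4 and 100 at 72 h (99.3 ± 10.5). Replicate 4 of 0 h stood with the 6 h libraries and apart from the other controls, and all 72 h libraries were below all 6 h libraries. It rose by 0.45 at 6 h (adjusted p = 0.0056, edgeR) and fell by 0.49 from 6 h to 72 h (adjusted p = 0.0006), which left -0.04 at 72 h (adjusted p = 0.82). The rise was 0.61 within replicates 1 and 2 and 0.25 within replicates 3 and 4 (adjusted p = 0.012 and 0.47), and DESeq2 gave an adjusted p of 0.076 for the rise. Without replicate 1 of 0 h the adjusted p of the rise was 0.082.

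The single fall at 72 h in the FOSL2 window was of loop3449, 130 kb long and ending at TOGARAM2, from 78.5 ± 15.3 through 75.4 ± 11.2 to 61.6 ± 2.33. Replicates 1 to 4 of 72 h held 60.2, 64.3, 69.7 and 50.9, and overlapped the controls (62.7 to 98.9). Replicates 3 and 4, averaged to 1 sample, were the highest and lowest, so the SD of 2.33 understates the spread. The loop fell by 0.36 (adjusted p = 0.027, edgeR). The call was lost in 9 of 25 alternatives, with an adjusted p of 0.16 without replicate 4 of 0 h, 0.12 without replicate 4 of 72 h, 0.059 without replicate 1 of 0 h and 0.051 without replicate 1 of 72 h. The 5 loops of the window not named here ranged from 0.04 to 0.29 at 72 h, with no call.

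JDP2, a repressor that competes with FOS for JUN, has no anchor on it, and the nearest starts 5.89 kb past its 3′ end. That anchor is joined to NEK9, a mitotic kinase gene, at chr14:75120001-75130000 (loop27091), over both FOS and JDP2. Contacts were 37.7, 42.7, 37.6 and 28.4 at 0 h, 34.3, 29.0, 36.8 and 38.6 at 6 h, and 18.6, 25.1, 29.1 and 18.7 at 72 h. Control and 6 h libraries coincided, and 3 of the 72 h libraries were below all of them. The loop fell by 0.71 at 72 h (adjusted p = 0.002, edgeR), the largest fall of the FOS window that passed at that time, and by 0.60 from 6 h (adjusted p = 0.023).

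The later step of the NEK9 loop was lost in 6 of 25 alternatives, without replicate 4 of 6 h (0.068), replicate 1 (0.089) or replicate 4 (0.079) of 72 h among them. The same anchor near JDP2 also joins RPS6KL1, a ribosomal S6 kinase-like gene, over 560 kb (loop27089). That loop was thin, with 5 to 16 raw contacts per library, and passed in no comparison (-0.51 ± 0.36 at 72 h, adjusted p = 0.26, edgeR). Its step of -0.85 from 6 h to 72 h, adjusted p = 0.064, passed without replicate 4 of 72 h (0.022). At that depth only large differences could be seen.

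BATF, which pairs with JUN and IRF proteins in lymphocytes, holds the far anchor of the 410 kb TMED10 loop (loop27093) over its 3′ part. Contacts were 23.2, 20.9, 16.3 and 21.6 at 0 h, 26.5, 20.6, 32.5 and 30.2 at 6 h, and 19.5, 14.1, 14.6 and 17.9 at 72 h. The 72 h libraries were below all 6 h libraries and overlapped the controls. It fell by 0.68 from 6 h to 72 h (adjusted p = 0.021, edgeR), and neither its 0.36 at 6 h (adjusted p = 0.36) nor its -0.33 at 72 h (adjusted p = 0.28) passed against 0 h. The step was lost in 7 of 25 alternatives, without replicate 3 (0.067) or 4 (0.06) of 6 h or replicate 2 (0.064) or 3 (0.051) of 72 h among them. The 2 loops with an anchor 2.47 kb before the start of BATF (loop27098 and loop27099) passed in no comparison, with 0.01 ± 0.14 and -0.18 ± 0.23 at 72 h.

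Loops that enclose a gene without ending on it were counted as well. At 72 h, 2 of the 5 that enclose FOS fell, 2 of 3 around FOSB, 2 of 4 around FOSL1, 2 of 6 around JDP2, 0 of 4 around BATF and 0 of 1 around FOSL2, and none rose. Over all tested loops 16.9% fell and 16.7% rose, and on chromosome 19, where FOSB lies, 35.4% fell; counts this small are given as a description. At least 1 listed promoter of any kind of gene lay in an anchor of 22 of the 50 loops, from 23 genes, and 7 of these loops fell at 72 h while none rose. That is near the share of all members that fell, 16 of 50 (32%), against 16.9% of all tested loops. Among them were the promoters of NEK9, KLC3, MARK4, VASP, EML2 and FIBP.

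The dimer partners and other AP-1 related genes gave a mixed picture at 72 h. Of 13 such genes, 8 had an end in an anchor of a tested loop, 16 loops in all, of which 5 rose and 4 fell with a median log2 fold change of 0.01, the value of all tested loops. Over all tested loops 16.7% rose and 16.9% fell, 33.6% together. At JUN, the main partner of FOS, 2 of 4 loops rose, by 0.59 (adjusted p = 0.00015, edgeR) and 0.41 (adjusted p = 0.011). At JUND, the partner present in resting cells, both loops fell, by 0.87 (adjusted p = 1.1e-09) and 0.46 (adjusted p = 6.3e-05). The JUND loops lie on chromosome 19, as does FOSB. A MAF loop rose by 1.16 (adjusted p = 0.0043), from 6.13 to 13.7 mean normalized contacts, and ATF7 and MAFK each had 1 loop that fell. At 6 h, 1 of the 16 fell, a JUND loop by 0.51 (adjusted p = 0.0025), and none rose, against 6.41% called over all tested loops.

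Genes on the route from PMA to FOS were sparsely covered. Of 22, 8 had a tested loop, 12 loops in all, of which 2 rose and 3 fell at 72 h and 1 fell at 6 h. With 12 loops, such counts lie near the shares called over all tested loops, 33.6% at 72 h and 6.41% at 6 h. Loops rose at PRKCE, a PMA-activated kinase gene, by 0.78 (adjusted p = 9.3e-08, edgeR) and at RASGRP1, a PMA-responsive RAS activator, by 0.54 (adjusted p = 0.0021). Loops fell at PRKCD, another such kinase gene, by 0.63 (adjusted p = 0.037) and 0.32 (adjusted p = 0.022), and at SRF, the factor that binds the FOS promoter, by 0.43 (adjusted p = 0.00059). Of the 6 FOS family genes, 4 had an end in an anchor, with 5 loops, of which 0 passed at 72 h (edgeR) and 1 fell at 6 h.

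Over the 12 libraries, the tested loop outside the windows most like the FOS loop was on chromosome X (loop33505), with Pearson r of log2 normalized contacts of 0.89. The closest to the FOSB loop was on chromosome 9 (loop19268, r = 0.92), to the FOSL1 loop on chromosome 17 (loop29223, r = 0.89) and to the 240 kb FOSL2 loop on chromosome 12 (loop23303, r = 0.88). The next in each case had r of 0.86, 0.90, 0.88 and 0.87. These are the highest among all tested loops outside the windows, share libraries and depth, and carry no test. The 6 h log2 fold changes of the first were -0.26, -0.35, -0.03 and 0.04, and their 72 h values 0.13, -0.25, -0.23 and 0.16, in that order. All calls among the 50 loops kept their sign within replicates 1 and 2 and within replicates 3 and 4. The calls were made on these same libraries, so the shared sign is no independent check.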

How the data were processed

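In situ Hi-C of K562 cells was measured at 3 times of PMA. The authors deposited, per the file headers, a table of raw contact counts for 33914 loops (anchors of 10 kb) in 30 columns, 1 per technical replicate, and their log2 fold changes, adjusted p-values and classes. Per the submitters' processing notes, hg38, Juicer 1.5.6, DESeq and DESeq2 were used; the loop caller is not given in the sources used here. The origin of the deposited log2 values is not stated; all count columns were used.

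Summing technical replicates gave 12 libraries. The columns of replicates 3 and 4 carry no run number. Their sequencing runs were taken as merged in the columns, which the labels do not state. Counts of 24132 loops that passed filterByExpr (9782 put aside) entered 1 quasi-likelihood model of edgeR 4.0.16 under R 4.3.3 (scaling by TMM, prior count 0.125, Benjamini-Hochberg over all tested loops, threshold 0.05). The standard error is the log2 fold change divided by the root of F. DESeq2 1.42.0 (no independent filtering), other scalings and filters, a length correction, a batch term, a replicate block, a fold minimum of 1.5 and leaving out libraries were alternatives; 1, summing replicates 3 and 4 at each time, was added after seeing the data.

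The members and gene lists were chosen with earlier results of these data known. Named loops are those within 10 kb of the 6 genes, and per window up to 3 of smallest adjusted p per comparison and the strongest loop. To these were added, per window, the 2 loops elsewhere most correlated with a reference loop. The reference had the highest mean count among loops within 10 kb of FOS, FOSB, FOSL1 or FOSL2. A gene is at an anchor when an end lies in it. Replicate numbers were not used to pair libraries in the main fit. Deviations of log2 contacts from the mean of each time were correlated over loops. Same-numbered libraries of different times gave 0.015 to 0.124, with 1 of 12 pairs above 0.1. Pairs with different numbers gave -0.074 to 0.044. Promoters and gene positions come from RefSeq tables (GRCh38.p14).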

Additional observations from a re-analysis of the deposited data

Results flagged for a closer look

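Among 46 groups of 4 libraries of the named loops, 2 held a library far from the others, where chance flags about 1 in 20 groups (2.3 here). Replicate 3 of 0 h had 50.2 normalized contacts in loop27086 upstream of FOS, against 60.8 to 61.6 in the other 3. Replicate 4 of 0 h had 136 in loop3446 past FOSL2, against 89.1 to 96.6.

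The change at 72 h differed from that at 6 h, tested as the edgeR contrast between these times, in 8 named loops. Loops were named in part for a small adjusted p in this same contrast, so their number is no separate result. Over all tested loops 20.5% passed it. In the FOS window the differences in log2 fold change were -0.55 for loop27086 (adjusted p = 0.0057), -0.60 for loop27091 (0.023) and -0.68 for loop27093 (0.021). In the FOSB window they were -0.51 for loop31016 (adjusted p = 0.038), -0.53 for loop31020 (0.043) and -0.30 for loop31026 (0.028). The value was 0.36 for loop22005 near FOSL1 (adjusted p = 0.019) and -0.49 for loop3446 near FOSL2 (0.0006).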

How the results depend on the processing

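No called value of a named loop changed sign under an alternative. Of 6, 17 and 10 members called at 6 h, at 72 h and between them, DESeq2 called 2, 10 and 2. Fits within replicates 1 and 2 called 3, 9 and 5, and within replicates 3 and 4 called 0, 8 and 4, with fewer libraries in each. These fits also called fewer of all tested loops than the main fit, so part of each drop was shared by the whole table. A fold change of at least 1.5 left 1, 7 and 3 members (3.07%, 19.2% and 12.6% of all tested loops), and an adjusted p under 0.01 left 9 at 72 h and 2 between the times (21.6% and 10% of all). Leaving out 1 library gave 1 to 8, 13 to 17 and 5 to 11 calls. Where that library belonged to a time compared, fewer of all tested loops were called than in the main fit. Counting a gene end within 10 kb of an anchor gave 11 loops at the 6 genes in place of 5. The other scalings, filters, the length correction, the batch term and the summed libraries kept these 3 totals within 1.5 times. Smaller counts moved further. The length correction left 3 of 5 falls at 6 h, 2 of 4 at FOSB, and no call at FOSL2 at 72 h. It also left fewer falls at 6 h over all tested loops. Summing replicates 3 and 4 of 72 h ended the single rise at 72 h, and summing them at each time left 1 of 3 calls at FOSL1.

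With the replicate number as a block, 8, 17 and 11 members were called. The numbers share no stated animal, day or batch. In deviations from the time means, 10 of 12 libraries correlated best with their own number, a hint from the data and not the design. Among named loops the block ended no call and added 2. Over all named loops, 110 of the alternative values lost a call, 26 gained one, and the causes were not tested. Depth limits thin loops: a count of 5 has an interval of 1.62 to 11.7.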
